A study of Mus musculus with 4 samples.

Results

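The 8-cell and 16-cell blastomeres of mouse embryos, taken on either side of the division at which the morula forms, were compared gene by gene and isoform by isoform. They were chosen by the stage that opens each cell's name in the gene and isoform tables, and they made up 64 of 161 cells. Of these, 26 came from 4 8-cell embryos, with 8, 8, 3 and 7 cells, and 38 came from 4 16-cell embryos, with 11, 15, 7 and 5 cells. The embryos were crosses of C57BL/6J and DBA/2 mice, labelled DBA/2J x C57BL/6J, from superovulated females aged 6 to 8 weeks. They carried no transgene or deletion and received no agent. The 8-cell embryos were collected 68 to 70 h after human chorionic gonadotropin (hCG), and the 16-cell embryos in a window of 78 to 80 h that also served for later embryos. The full-length cDNA of single blastomeres was sequenced by HIT-scISOseq, a PacBio method, with each molecule counted once through its unique molecular identifier (UMI). The embryo was the replicate, with the mean over its cells as its value, in copies for every 100,000 UMIs that the cell held. The names give no sequencing run, so run and embryo cannot be told apart, and they do not say whether a number was used again in another run.

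At the 8-cell stage the blastomeres of the mouse embryo flatten against each other, a step called compaction, and acquire an apical side that faces outward. The next division leaves some cells inside and others outside. Outer cells later form the trophectoderm, the epithelium that pumps the blastocoel and builds the placenta, while inner cells form the inner cell mass, from which the fetus and the primitive endoderm arise. The transcription factors Cdx2 and Gata3 mark the outer fate, and Sox2 and Nanog mark the inner one.

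The 8-cell blastomeres held 11012 to 42673 gene UMIs and the 16-cell blastomeres 6934 to 60831. Embryo 3 of each stage was shallow, with medians of 11844 and 12236 UMIs per cell, and 16-cell embryo 4 had a median of 14987. The cells of embryo 2 of each stage stood apart in oocyte-expressed genes. H1foo, the oocyte linker histone, measured 106, 6.01, 49.1 and 61.0 copies in 8-cell embryos 1 to 4 and 184, 2.96, 134 and 97.7 copies in the 16-cell embryos. The summed level of 8 such genes (H1foo, Oosp1, Btg4, Oosp3, Gdf9, Obox1, Obox2 and Obox5), chosen after their values were seen, was 34.5 copies in 8-cell embryo 2 and 50.7 copies in 16-cell embryo 2, against 250 to 420 and 476 to 763 copies in the other embryos. The mean length of the isoforms, weighted by their copies in the embryo, was 1071 bases in 16-cell embryo 2 and 1222 to 1418 bases in the other 7 embryos. Mitochondrially encoded genes took 8.45, 8.2, 1.97 and 1.56% of the UMIs of the 8-cell embryos and 2.62 to 4.44% in the 16-cell embryos. The part of these differences in the results was not tested, and the counts of calls are also given without embryo 2 and without embryo 3 of both stages. The cumulus and granulosa list (9 of 12 genes in the table) summed to 3.88 to 6.20 copies at 8-cell and 1.74 to 10.9 copies at 16-cell with 6 members at 0, and the blood list (10 of 10) to 4.39 to 6.35 and 0.986 to 5.67 copies, with Ptprc and 3 others at 0. Of each of these lists 3 genes were tested, and limma called none, at p under 0.01 or under 0.05.

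**Figure D1:**
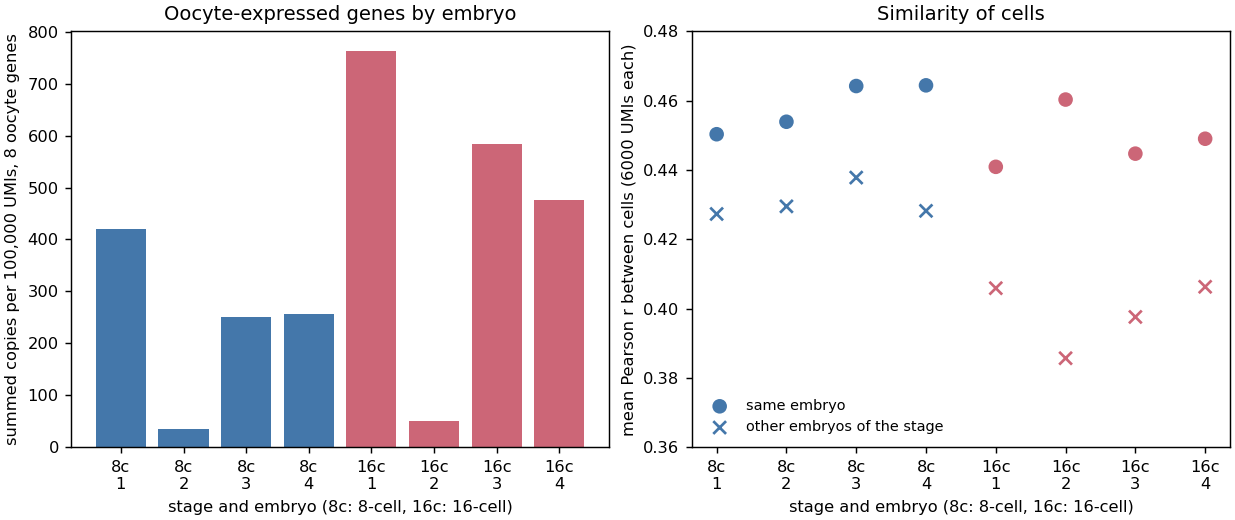
Left, bars give the summed copies per 100,000 UMIs of 8 oocyte-expressed genes in each of the 4 8-cell (blue) and 4 16-cell (red) embryos. Embryo 2 of both stages lies at 34.5 and 50.7 copies and every other embryo at 250 or more. Right, the mean Pearson r between pairs of cells thinned to 6000 UMIs, with circles for cells of the same embryo and crosses for cells of other embryos of the stage, on an axis that starts at 0.36; the crosses lie lower at 16-cell.

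Among genes at 10 or more copies with no overlap of 8-cell and 16-cell embryos, single genes of prostaglandin and glutathione metabolism, an epithelial adhesion gene and cytoplasmic actin were among those that rose most, and the feedback inhibitor Socs3 and the transcription factor genes Obox6 and Spic among those that fell most. A gene was called where limma gave an unadjusted p under 0.01 and a log2 difference above 1 in absolute value, on log2(copies + 1). That is the scale of every log2 difference here but those of edgeR and DESeq2, and it understates the change of low genes. Of 11682 genes tested, 393 (3.36%) were called, 222 (1.9%) higher and 171 (1.46%) lower at 16-cell, and 168 genes (1.44%) passed an adjusted p of 0.05. The median difference over all genes tested was 0.03. Without 16-cell embryo 1 the balance turned, with 133 genes called higher and 182 lower, and 35 genes passed the adjusted limit. It also turned when cells were averaged on the log scale, with 136 higher and 237 lower, and edgeR on the recovered UMIs called 83 of 3173 genes, 34 higher and 49 lower. Without embryo 2 of both stages 289 genes were called, 181 of them among the 393, and without embryo 3 of both stages 423 genes, of which 309 were among them.

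Among 1868 genes at 10 or more copies in the higher stage, 96 (5.14%) were called, and in 43 (2.3%) the embryos of the stages also did not overlap, 16 of them higher and 27 lower. Over all 11682 genes tested, called or not, the embryos of the stages did not overlap in 413 (3.54%). The strongest rise of these was in Ptges, which encodes the terminal enzyme of prostaglandin E2 synthesis. Ptges measured 1.84, 0, 0 and 2.28 copies in 8-cell embryos 1 to 4 and 16.8, 21.4, 6.66 and 10.3 copies in 16-cell embryos 1 to 4. Every 16-cell embryo was higher than every 8-cell embryo, and the log2 difference was 2.94 ± 0.42 (SE, adjusted p = 1.08e-05), from 11 UMIs in all at 8-cell and 201 at 16-cell. Akr1b8, an aldo-keto reductase gene, measured 9.40, 0.526, 2.81 and 7.19 copies and then 33.4, 31.0, 21.4 and 15.5 copies. Its embryos did not overlap either, with a log2 difference of 2.47 ± 0.50 (adjusted p = 0.00248). Gsto1, a glutathione S-transferase gene, rose from 8.96 ± 6.15 (SD, n = 4) to 47.3 ± 16.4 (SD, n = 4) copies, with 8-cell embryo 2 the highest of its stage at 18.1 copies.

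Epcam, an adhesion molecule of epithelia, measured 8.32, 1.51, 18.3 and 10.8 copies at 8-cell and 31.3, 39.3, 50.6 and 20.1 copies at 16-cell. The lowest 16-cell embryo lay just above the highest 8-cell embryo, and the log2 difference was 2.19 ± 0.43 (adjusted p = 0.00192). Actg1, which encodes cytoplasmic gamma-actin, was the most abundant of the 12 largest rises, at 46.7, 71.8, 26.7 and 40.3 copies and then 190, 232, 170 and 94.3 copies. It rose by 1.87 ± 0.50 on the log2 scale (adjusted p = 0.0371), but without 16-cell embryo 1 the value was 1.63 with an unadjusted p of 0.012, past the limit for a call. The alpha-tubulin gene Tuba4a lay within 2.13 to 3.17 copies in the 8-cell embryos and 8.34 to 22.0 copies in the 16-cell embryos. The other 6 of the 12 largest rises ranged from 1.12 to 1.35 in log2 difference. They were Tex19.1, a gene known for restraining retrotransposons in the germ line and placenta, Cnn3, a calponin that binds actin, Cetn3, which encodes a centrin, Cops3, of the COP9 signalosome, Ssr3, of the translocon-associated complex, and Eva1a. Cnn3 had a log2 difference of 0.98 without 16-cell embryo 1, and Eva1a 0.91 and 0.87 without 16-cell embryos 3 and 4 and 0.97 without embryo 3 of both stages. Cops3 was at 1.02 (unadjusted p = 0.016) without 8-cell embryo 1 and 1.03 (unadjusted p = 0.011) without embryo 3 of both stages, Cetn3 at 0.99 without 8-cell embryo 4 and 1.04 (unadjusted p = 0.015) without 16-cell embryo 1, Ssr3 at 0.98 without 8-cell embryo 4, and Eva1a at 0.93 and 0.92 without 8-cell embryos 1 and 2. Of the 12, Ptges and Tex19.1 were called under all 25 alternatives run.

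**Figure D2:**
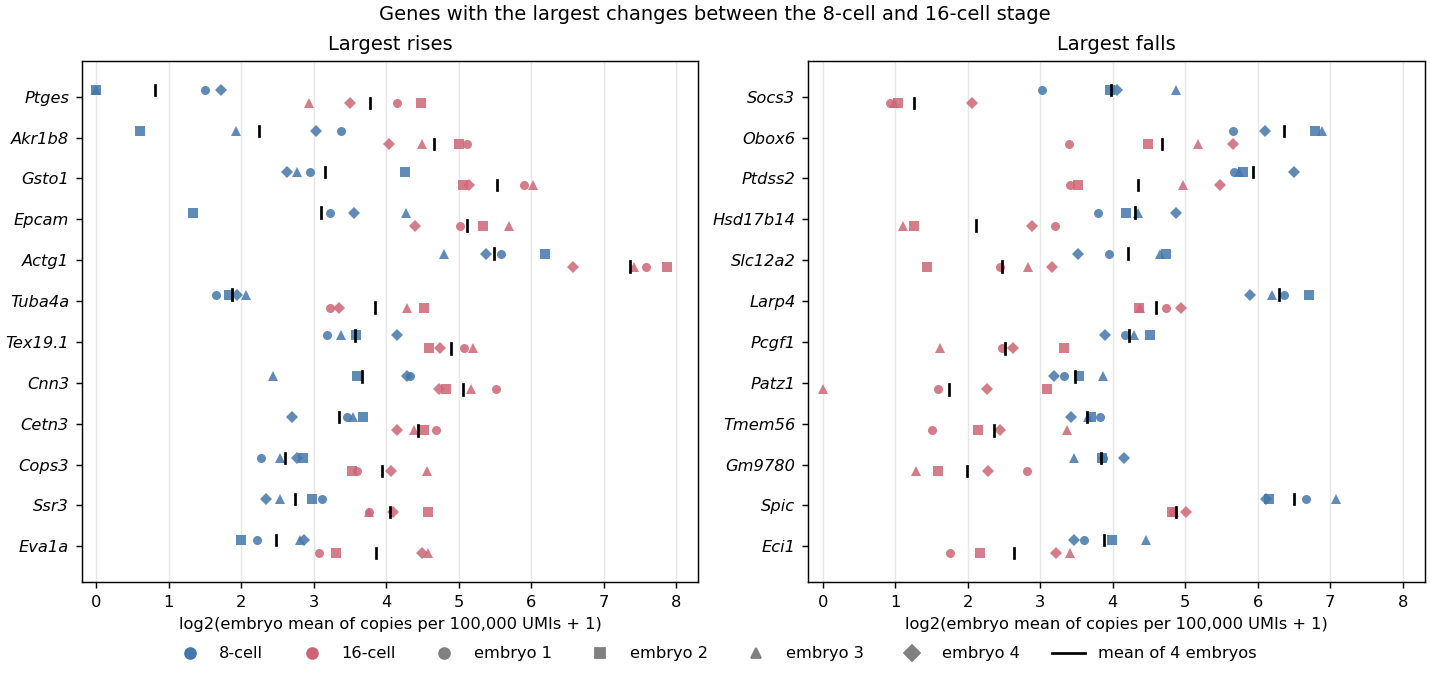
Embryo means on the log2(copies per 100,000 UMIs + 1) scale for the 12 largest rises (left) and the 12 largest falls (right) among called genes at 10 or more copies, with 8-cell embryos in blue, 16-cell embryos in red, a symbol for each embryo number and a black bar at the mean of 4 embryos. By the choice of genes no 8-cell embryo overlaps a 16-cell embryo, and the gap between the nearest embryos is widest for Ptges.

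The gene that fell most was Socs3, which encodes a feedback inhibitor of cytokine signalling through JAK and STAT3. It measured 7.16, 14.6, 28.3 and 15.6 copies at 8-cell and 0.905, 1.05, 0.986 and 3.18 copies at 16-cell. All 16-cell embryos lay well below the lowest 8-cell embryo, the log2 difference was -2.65 ± 0.39 (adjusted p = 2.21e-05), and the call was made under all 25 alternatives. Cells with a Socs3 UMI numbered 22 of 26 (84.6%) at 8-cell and 9 of 38 (23.7%) at 16-cell. The shares expected at a depth of 6000 UMIs per cell, computed from each cell's counts and not from draws, were 49.8 and 7.20%. Obox6, a homeobox gene of the oocyte and cleavage stages, measured 49.5, 109, 117 and 67.7 copies and then 9.56, 21.5, 35.0 and 49.4 copies. The highest 16-cell embryo and the lowest 8-cell embryo almost met, and the log2 difference of -2.03 ± 0.39 became -1.07 (unadjusted p = 0.024) without 16-cell embryo 1. Spic, an ETS-family transcription factor gene, measured 100, 70.6, 134 and 68.5 copies at 8-cell and 27.4, 27.3, 27.6 and 31.1 copies at 16-cell. The 16-cell embryos were close together and the log2 difference was -1.55 ± 0.38 (adjusted p = 0.0189).

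The other 9 of the 12 largest falls ranged from -1.48 to -2.02 in log2 difference. Larp4, an RNA-binding protein gene of poly(A) tails, measured 81.1, 104, 72.3 and 58.6 copies at 8-cell and 25.5, 19.5, 19.8 and 29.7 copies at 16-cell. No 16-cell embryo reached the lowest 8-cell embryo, with a log2 difference of -1.67 ± 0.32 (adjusted p = 0.00124) that was called under all 25 alternatives, as was the fall of Pcgf1, a subunit of a variant Polycomb complex, at -1.66 ± 0.29. Ptdss2, a phosphatidylserine synthase gene, fell from 61.6 ± 18.5 to 23.5 ± 16.4 copies (SD, n = 4 each), and its log2 difference of -2.02 became -1.22 (unadjusted p = 0.021) without 16-cell embryo 1. Slc12a2, which encodes a sodium, potassium and chloride cotransporter, fell from 18.7 ± 7.41 to 5.05 ± 2.64 copies, at -1.71 and, without embryo 2 of both stages, -1.10 (unadjusted p = 0.026). Hsd17b14, a dehydrogenase gene, and the transcription factor gene Patz1 fell by 1.80 and 1.65 on the log2 scale. Eci1, an enoyl-CoA isomerase gene of fatty acid oxidation, and Tmem56 had no call without 16-cell embryo 1, at -0.77 and -0.98, and Eci1 also lost it if 16-cell embryo 2 was left out, at -1.15 (unadjusted p = 0.015). Without embryo 2 of both stages Eci1 was at -1.06 and Tmem56 at -1.32 (unadjusted p = 0.038 and 0.017), and the predicted gene Gm9780 fell by 1.62. Beyond the 12, 15 genes met the same rule with smaller falls, from -1.0 to -1.39. Among them were Plk1, a mitotic kinase, Esco2, a cohesin acetyltransferase, Sun1, a nuclear envelope protein, Eif4e, the cap-binding translation factor, and Tdgf1, the Nodal co-receptor Cripto. Of these 5, Sun1 was called under all 25 alternatives, Esco2 was at -0.88 without 16-cell embryo 3 and -0.92 without embryo 3 of both stages, Eif4e at -0.74 without 16-cell embryo 2 and -0.71 without embryo 2 of both stages, and Tdgf1 and Plk1 are taken up with their lists.

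Of the trophectoderm list, 19 of 20 genes were in the table and 13 were tested, of which 4 were called higher (Cdx2, Gata3, Elf3 and Id2) and none lower, with a median log2 difference of 0.63 against 0.03 over all genes. Of all genes tested 1.9% were called higher and 1.46% lower. At an unadjusted p under 0.05 limma had 5 of the list higher and 2 lower, against 6.51 and 4.62% of all genes. The median was 0.23 without 16-cell embryo 1. With a filter of 5 copies it was -0.35 over 6 genes. Fold changes of edgeR and DESeq2 on summed UMIs, another log2 scale, had medians of -0.38 and -0.36 over 6 genes each. Cdx2, the outer-cell homeobox gene, measured 0.371, 0, 0 and 0 copies at 8-cell and 1.2, 1.11, 12.6 and 15.6 copies at 16-cell, from 1 and 31 UMIs. The 16-cell embryos were all higher, and those with the fewest UMIs per cell, embryos 3 and 4, were the highest. Elf3, an epithelial ETS factor gene, measured 2.62, 1.74, 21.0 and 8.90 copies and then 36.5, 26.1, 30.7 and 16.8 copies, so that 8-cell embryo 3 lay above 16-cell embryo 4 (log2 difference 2.53, adjusted p = 9.89e-04). Id2, an inhibitor of helix-loop-helix factors, rose from 1.45, 0, 1.59 and 0 copies to 8.32, 8.49, 2.06 and 4.33 copies, with no overlap (log2 difference 2.32). The nearest embryos, number 3 of each stage, held 1 Id2 UMI each. Gata3 rose from 0.824 ± 0.809 to 3.49 ± 1.64 copies (SD, n = 4 each), at 1.39 (adjusted p = 0.126). It was not called without 16-cell embryo 1 or embryo 2, at 1.01 (unadjusted p = 0.081) and 1.14 (unadjusted p = 0.033), or without embryo 2 of both stages, at 1.39 (unadjusted p = 0.016). The members not called included Tfap2c at 12.2 and 8.17 copies, lower in every 16-cell embryo, Tead4 at 9.71 and 9.09, Eomes at 0.527 and 1.58, Klf5 at 16.1 and 23.7, Tbx3 at 13.4 and 7.63, Hand1 at 6.08 and 4.29, and Fgfr2 at 2.11 and 3.9 copies at 8-cell and 16-cell. Dppa1, Cited2, Gata2, Tfap2a, Klf6, Ascl2 and Msx2 stayed under 1 copy in the mean of both stages, and Bmp4 was at 0.

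Of the pluripotency and inner cell mass list, 24 of 25 genes were in the table and 21 were tested. Nanog, Tfcp2l1, Zfp42 and Tdh rose, Tdgf1 fell, and the median difference was -0.10. Over all genes tested, 1.9% were called higher and 1.46% lower. At an unadjusted p under 0.05 limma had 5 of the list higher and 2 lower, against 6.51 and 4.62% of all genes. Nanog, a core pluripotency factor gene, measured 0.742, 1.32, 0 and 0 copies at 8-cell and 6.14, 4.38, 0 and 2.49 copies at 16-cell. The shallow 16-cell embryo 3 had none, and the log2 difference of 1.6 (adjusted p = 0.00105) fell to 0.77 without 16-cell embryo 1. Tfcp2l1, a target of the LIF pathway in embryonic stem cells, rose from 5.67 ± 2.07 to 19.6 ± 15 copies (SD, n = 4 each) at a log2 difference of 1.56, which was 1.04 (unadjusted p = 0.047) without 16-cell embryo 1, 1.05 (unadjusted p = 0.027) without 16-cell embryo 2 and 1.02 (unadjusted p = 0.046) without embryo 2 of both stages. Tdgf1 measured 21.0, 12.3, 13.6 and 19.2 copies and then 5.52, 4.77, 9.29 and 8.18 copies, with no overlap. Its log2 difference of -1.34 became -1.11 (unadjusted p = 0.016) without 16-cell embryo 1. Zfp42 (8.06 and 16.1 copies) and Tdh, the threonine dehydrogenase gene (8.51 and 25.3 copies), were called at adjusted p-values of 0.160 and 0.183, and each lost the call without any of several embryos, at 0.75 to 1.19 for Zfp42 (8-cell embryo 1 or 2, 16-cell embryo 1 or 3, or embryo 2 of both stages) and 0.83 to 1.06 for Tdh (8-cell embryo 1 or 2, 16-cell embryo 3 or 4, or embryo 2 or 3 of both stages). The members not called stood at 28.5 and 45.9 copies for Pou5f1, 470 and 419 for Dppa5a, 70.7 and 99.2 for Dppa2, 53.6 and 39.2 for Dppa4, 7.81 and 5.60 for Klf4, 10.2 and 6.86 for Klf2, 7.59 and 7.65 for Sall4, 12.3 and 7.12 for Nr5a2, 2.38 and 1.94 for Esrrb, 3.10 and 0.468 for Fgf4, and 0.195 and 0.483 for Sox2. Prdm14, Spp1, Gdf3, Utf1, Pecam1 and Sox21 lay between 0.426 and 6.91 copies in either stage, Nr0b1 had 1 UMI and Nodal was at 0.

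The largest log2 difference of any called list member was that of Lrp2, the endocytic receptor megalin. It measured 1.04, 0, 0 and 0 copies at 8-cell and 15.3, 8.71, 8.2 and 2.2 copies at 16-cell. No embryo overlapped, and the difference was 3.09 (adjusted p = 3.16e-06) from 3 and 117 UMIs, called under all 22 alternatives in which the gene was tested. The 2.2 copies of 16-cell embryo 4 were 1 UMI, while the 1.04 copies of 8-cell embryo 1 were 3 UMIs in 3 of 8 cells. The lack of overlap between these 2 embryos thus rests on the worth of 1 UMI in a shallow cell. Dab2, the adaptor that links such receptors to clathrin, measured 14.3, 1.86, 0 and 1.99 copies and then 36.2, 13.8, 15.5 and 12.8 copies. 8-cell embryo 1 lay above 16-cell embryos 2 and 4, and the log2 difference was 2.39 (adjusted p = 0.00133). Cltc, the clathrin heavy chain gene, was called at 1.13 (adjusted p = 0.178) and lost the call without 16-cell embryo 1 or 2, at 0.95 and 0.88, without 8-cell embryo 1 or 3, at 1.08 (unadjusted p = 0.02) and 0.90, and without embryo 2 of both stages, at 0.96. Of the 16 endocytic receptor and adaptor genes tested, these 3 were called higher and none lower, against 1.9 and 1.46% of all genes tested. The median of the 16 was 0.03. Of the 10 primitive endoderm genes tested, Dab2 alone was called.

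For the lists of the cell cortex and junctions, the shares of all genes tested that were called were 1.9% higher and 1.46% lower. Of 29 compaction and polarity genes tested, 25 had the higher estimate at 16-cell, 7 of them at an unadjusted p under 0.05, where 6126 of all 11682 genes had the higher estimate and 6.51% were higher and 4.62% lower at that limit. Only Pard3, a scaffold of the apical and junctional Par complex, was called by the main rule (log2 difference 1.14, adjusted p = 0.166). The median was 0.41, the summed level was 169 to 199 copies in the 8-cell embryos and 235 to 292 copies in the 16-cell embryos, and those ranges did not overlap. Pard3 lost its call without 16-cell embryo 1, at 0.44, or embryo 2, at 0.66, and without 8-cell embryos 2, 3 and 4, at 1.04 (unadjusted p = 0.02), 1.03 (unadjusted p = 0.014) and 0.99, and was at 0.56 without embryo 2 of both stages. Of 25 actin and myosin genes tested, Actg1, Myh10, Cnn2 and Cnn3 rose and none fell (median 0.39), and without 16-cell embryo 1 none was called and the median was 0.08. Myh10 also lost the call without 16-cell embryo 2 or 8-cell embryo 1, 2 or 3 (0.78 to 1.11), and Cnn2, at 1.0, without any embryo but 8-cell embryo 2 and 16-cell embryo 3 (0.85 to 0.98). Of 16 keratin and epithelial genes tested, Epcam and S100a11 rose (median 0.51), while S100a11 was at 0.61 without 16-cell embryo 1, 0.94 without 16-cell embryo 2 and 0.85 without embryo 2 of both stages. None of 14 tight junction and desmosome genes was called by limma (median 0.14), with 4 higher and 1 lower at an unadjusted p under 0.05. Of 19 Hippo pathway genes, Amot, an adaptor of that pathway at junctions, was called, from 0, 0, 0 and 1.86 copies to 2.94, 5.24, 1.09 and 2.2 copies. The 8-cell embryo with Amot UMIs lay within the 16-cell range, and without embryo 2 of both stages the log2 difference of 1.49 became 0.90. Of 11 genes of blastocoel transport, Fxyd4, a regulator of the sodium pump, fell, at -1.31, or -0.88 without 8-cell embryo 1.

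**Figure D3:**
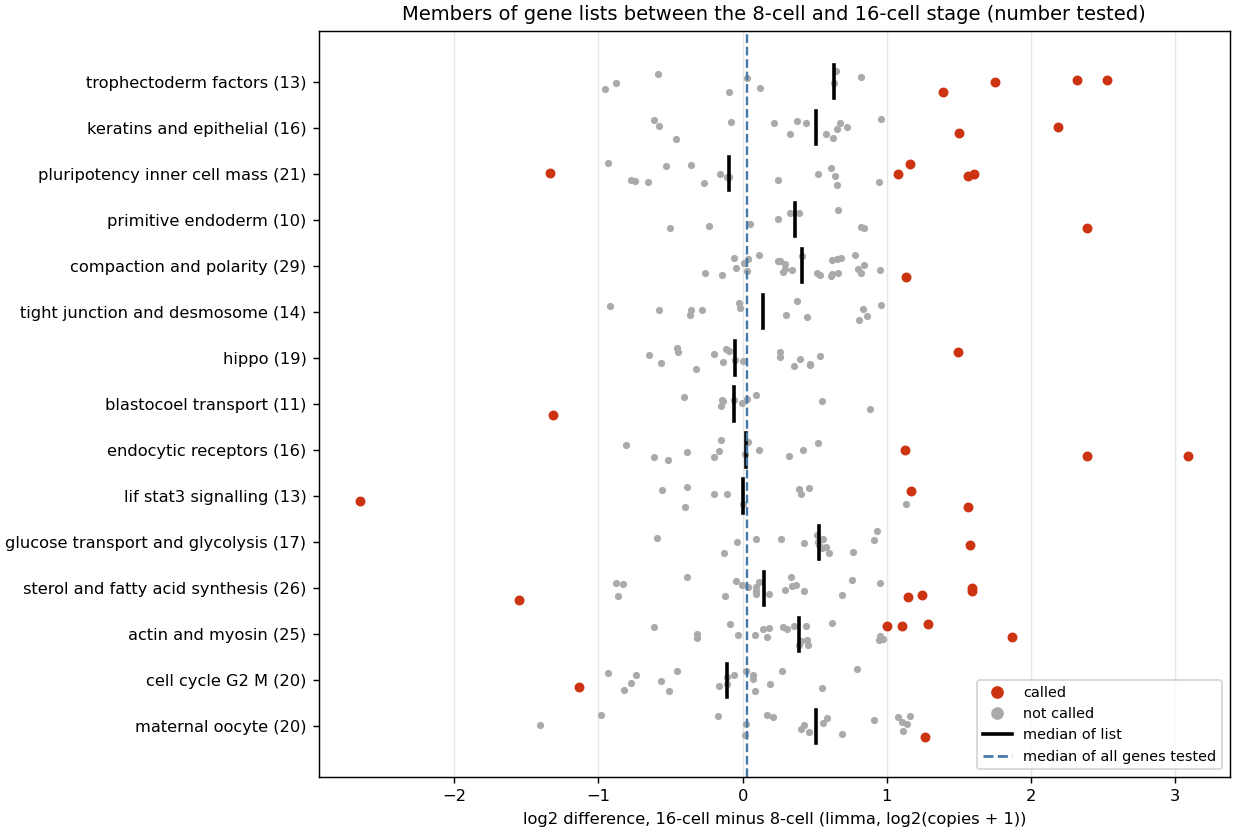
Log2 differences (16-cell minus 8-cell, limma) of the tested members of 15 gene lists, 1 point a gene, with called genes in red, the median of each list as a black bar and the median of all 11682 genes as a dashed line at 0.03. Lrp2 lies furthest to the right and Socs3 furthest to the left, and the medians of the trophectoderm, keratin, compaction, glucose and oocyte lists lie between 0.41 and 0.63.

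In the lists of signalling and metabolism the counts of calls stand beside 1.9% of all genes tested called higher and 1.46% called lower. Of 13 LIF and STAT3 genes tested, Stat3 and Tfcp2l1 rose and Socs3 fell. Stat3 was called at 1.17 (adjusted p = 0.201) and lost the call without embryo 2 of both stages, at 0.50, and without 8-cell embryo 1 or 2 or 16-cell embryo 1 or 2, at 0.78 to 1.0. None of 15 FGF and ERK genes was called by limma, with none higher and 2 lower at an unadjusted p under 0.05, against 6.51 and 4.62% of all genes. Of 16 WNT, BMP and Nodal genes Id2 rose and Tdgf1 fell. Ptges and Akr1b8 were the called members of 12 prostaglandin and aldo-keto reductase genes tested, of which 5 had the higher and 7 the lower estimate (median -0.24), while Ptgs1 and Ptgs2, the cyclooxygenases that act upstream of Ptges, were at 0 in all 64 cells. Slc2a1, the glucose transporter GLUT1, had no UMI in the 26 8-cell blastomeres, and measured 1.17, 2.92, 2.19 and 5.36 copies in the 16-cell embryos from 26 UMIs in 17 of 38 cells. It was the called gene among 17 of glucose transport and glycolysis, whose median was 0.53. Of 26 sterol and fatty acid synthesis genes, Mvd, Stard4, Scd1 and Scd2 rose and Fdft1, squalene synthase, fell. The desaturase genes Scd1 and Scd2 measured 18.0 and 17.9 copies in 16-cell embryo 2 and at most 3.54 copies in the other embryos, and without 16-cell embryo 2 they were at 0.58 and 0.84. Scd1 also lost the call without 16-cell embryo 1 or 8-cell embryo 3 or 4 (0.95 to 1.10), Scd2 without 16-cell embryo 1 (1.2), Mvd without 8-cell embryo 4 or 16-cell embryo 1 (0.86 and 1.07), and Stard4 without embryo 2 of both stages (1.26). Fdft1 was at -0.92 without 16-cell embryo 1 and -1.14 without 16-cell embryo 2, with unadjusted p-values of 0.074 and 0.018.

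Of 20 genes of G2 and mitosis Plk1 alone was called, lower at 16-cell, and its level in 16-cell embryo 2 was 1.25 copies against 7.90 to 8.72 in the other 16-cell embryos. Without that embryo its log2 difference of -1.14 became -0.73, and without 8-cell embryo 2 it was -1.02 (unadjusted p = 0.015). None of 21 DNA replication genes, 9 genes of G1 and CDK inhibition, 83 ribosomal protein genes or 13 mitochondrially encoded genes was called by limma, with 2, 2, 0 and 0 higher and 0, 0, 1 and 3 lower at an unadjusted p under 0.05 and medians of 0.14, 0.29, 0.07 and -0.42. Over all genes tested, 6.51% were higher and 4.62% lower at that limit. By the main rule 1.9% were called higher and 1.46% lower. Of 20 genes of the transcription burst at the 2-cell and 4-cell stages, Obox1 and Obox2 rose and Obox6 and Sp110 fell, and Zscan4c and Zfp352 were at 0. Obox1 and Obox2 followed the oocyte genes among the embryos, at 2.95 and 2.98 copies in 8-cell embryo 2 and 4.84 and 6.20 copies in 16-cell embryo 2, and their differences were 0.56 and 0.74 when 8-cell embryo 2 was left out, or 0.69 and 0.67 when 16-cell embryo 1 was. Sp110 was at -0.88 without 16-cell embryo 1 and -1.12 (unadjusted p = 0.030) without 8-cell embryo 4. The 20 oocyte genes of the maternal list had a median of 0.51, with 17 having the higher estimate and 5 higher and 2 lower at an unadjusted p under 0.05, but Oog1 alone was called, and their summed level ranged from 82.5 to 400 copies in the 8-cell embryos and 194 to 713 copies in the 16-cell embryos. Without 16-cell embryo 1 Oog1 was at 1.10 (unadjusted p = 0.010). Of 10 DNA methylation genes Tet2 was called, higher, and lost the call without 16-cell embryo 1, at 0.70, and without 8-cell embryo 2 or 4, at 0.88 and 0.90. Ier2 and Gadd45b rose among 15 immediate early and stress genes, but Ier2 was at 0.70 without 8-cell embryo 1 and 0.90 without 8-cell embryo 2, and Gadd45b at 1.29 (unadjusted p = 0.016) without 8-cell embryo 2, 1.16 (unadjusted p = 0.030) without 16-cell embryo 2 and 0.96 without embryo 2 of both stages. Of 19 metallothionein and redox genes Gsto1 and Cat, catalase, rose and Mt1 and Gpx3 fell. Mt1 measured 75.5, 194, 108 and 109 copies and then 14.9, 90.4, 58.2 and 94.7 copies, and its log2 difference of -1.71 was -0.51 without 16-cell embryo 1. Gpx3, at -1.17, was at -0.65 without embryo 2 of both stages and also lost the call without 8-cell embryo 1 or 2 or 16-cell embryo 1 or 2.

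Without embryo 2 of both stages the calls of several lists changed. The sterol and fatty acid list had 1 higher and 2 lower, the LIF and STAT3 list 0 higher and 1 lower, the immediate early list none, the pluripotency list 2 higher and 1 lower, the trophectoderm list 3 higher, the compaction and Hippo lists none, the G2 and mitosis list none, the redox list 2 higher and 0 lower, the tight junction list 2 higher and 1 lower and the maternal list 3 higher. Among single genes, Ier2 was then at 0.99, Tet2 at 0.96, Myh10 at 0.89, Mt1 at -1.39 and Sp110 at -1.52, none of them called, with unadjusted p-values from 0.011 to 0.095. Without embryo 3 of both stages the sterol list had 3 higher and 1 lower, with Scd1 at 1.16 (unadjusted p = 0.013), and the compaction list 2 higher. Without 16-cell embryo 1 the pluripotency list had 1 higher and 1 lower, the LIF and STAT3 list 0 higher and 1 lower, the sterol list 1 higher and 1 lower and the list of the 2-cell and 4-cell burst none.

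Within the 2 deeper 16-cell embryos, genes of the outer and inner cells differed from cell to cell, and these genes and cells were chosen after their values were seen. In 16-cell embryo 1 the 11 cells held 20, 18, 13, 12, 9, 2, 1, 1, 0, 0 and 0 Lrp2 UMIs. The 3 cells of that embryo with a Sox2 UMI were the 3 without Lrp2, and they also held none of its 46 Id2 UMIs, while they held 18 of 169 Dab2 UMIs and 11 of 80 Ptges UMIs. Elf3 was in all 11 cells, at 12, 2 and 14 UMIs in those 3 and 8 to 25 in the others. In 16-cell embryo 2, 5 of 15 cells held all 33 Lrp2 UMIs (15, 7, 5, 3 and 3), and of the 5 cells with a UMI of Fgf4, a growth factor gene of inner cells, 1 held 7 of those 33 UMIs and 4 held none. Unlike the Sox2 cells of embryo 1, the 5 Fgf4 cells did hold Id2, with 10 of 38 UMIs. They also held 30 of 108 Ptges UMIs and 13 of 64 Dab2 UMIs. Embryo 1 had no Fgf4 UMI and embryo 2 had 1 Sox2 UMI, in 1 of its Fgf4 cells. The inner gene read thus differs between the embryos, and neither pattern is repeated in the other. Nanog UMIs lay in cells with and without Lrp2 in both embryos, and Spic ran the other way from Lrp2. In embryo 1 the 6 cells with 2 or more Lrp2 UMIs held 1 to 4 Spic UMIs and the other 5 cells 5 to 24. In embryo 2 the 5 cells with Lrp2 held 1 to 6 Spic UMIs and the other 10 cells 0 to 37.

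Spearman's rho of Lrp2 with Spic over the cells of an embryo was computed on copies scaled to the UMIs of each cell, without thinning. It was -0.817 in embryo 1 (n = 11) and -0.568 in embryo 2 (n = 15). Of 2314 genes, those most like Lrp2 by the lower of the 2 rhos were Cyp2s1 (0.734 and 0.796), Dab2 (0.734 and 0.711), Ap2a2, an alpha subunit of the clathrin adaptor AP-2 (0.789 and 0.702), Id2 (0.722 and 0.692) and Xist, the RNA that coats the inactive X chromosome (0.929 and 0.683). The most opposite were Mcrip2 (-0.817 and -0.748), Map1lc3b (-0.706 and -0.683) and Dppa3 (-0.679 and -0.661). These are correlations over cells of 1 embryo each, which are few and are not replicates. The names do not say whether the cells of an embryo shared a library. Lrp2 on the same scale also moved with the total UMIs of a cell, at a rho of 0.688 in embryo 1 and -0.461 in embryo 2. The part of depth in these values was not tested. Across stages the share of cells with an Lrp2 UMI was 3 of 26 and 17 of 38, or an expected 1.92 and 29.7% at 6000 UMIs. For Cdx2 it was 1 of 26 and 15 of 38, or an expected 0.684 and 16.3% at 6000 UMIs.

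**Figure D4:**
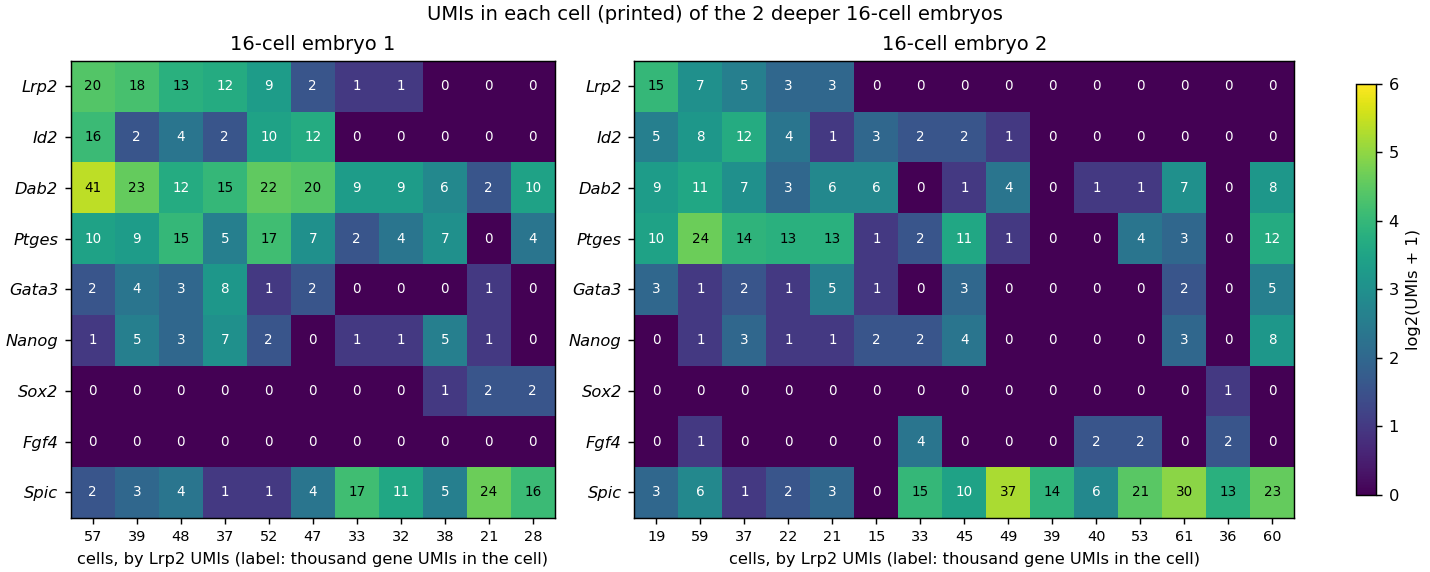
UMIs of 9 genes (rows) in each cell (columns) of 16-cell embryos 1 (11 cells) and 2 (15 cells), printed in the squares and coloured by log2(UMIs + 1), with cells ordered by Lrp2 and labelled by their gene UMIs. Sox2 UMIs in embryo 1 fall in the 3 cells with no Lrp2, and Spic is low where Lrp2 is high.

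The promoters of 3 of the genes that moved most are shown because each holds a match to a motif that was searched, as the 250 bases before the start of the gene in RefSeq (GRCm38.p6), in lower case with the matched motif in capitals. In Socs3 (chr11:117969367-117969616, minus strand) the match is to TTCNNNGAA, the palindrome that STAT factors bind, at position -154 from the start. In Actg1 (chr11:120348496-120348745, minus strand) it is to the CArG box of serum response factor, at -90. In Ptges (chr2:30903298-30903547, minus strand) it is to GGAATG, the motif of TEAD factors, read on the other strand, at -151.
Socs3: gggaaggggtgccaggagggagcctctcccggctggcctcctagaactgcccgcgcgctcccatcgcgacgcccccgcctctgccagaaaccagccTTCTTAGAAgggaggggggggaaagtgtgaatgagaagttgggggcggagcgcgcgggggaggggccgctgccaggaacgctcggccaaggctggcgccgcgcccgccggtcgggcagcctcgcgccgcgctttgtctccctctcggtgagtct
Actg1: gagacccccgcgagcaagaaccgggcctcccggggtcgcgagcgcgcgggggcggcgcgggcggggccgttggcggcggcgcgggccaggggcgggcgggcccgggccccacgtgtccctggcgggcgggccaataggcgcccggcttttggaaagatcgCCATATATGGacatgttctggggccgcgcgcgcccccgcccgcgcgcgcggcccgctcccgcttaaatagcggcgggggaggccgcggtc
Ptges: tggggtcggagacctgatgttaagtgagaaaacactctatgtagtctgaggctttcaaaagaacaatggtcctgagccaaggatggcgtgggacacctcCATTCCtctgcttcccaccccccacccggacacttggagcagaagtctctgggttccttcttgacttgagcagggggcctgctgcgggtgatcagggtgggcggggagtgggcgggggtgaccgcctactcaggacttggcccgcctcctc
Both strands were searched in all 32851 promoters of that length, of which 7.02% held TTCNNNGAA, 12.6% GGAATG and 1.47% a CArG box. Of the 24 largest rises and falls 19 had a promoter in the table. Among 12 that rose, none held TTCNNNGAA, 1 held GGAATG and 2, Actg1 and Gsto1, a CArG box. Among 7 that fell, 1 held TTCNNNGAA and none the other motifs. A match describes these letters and is not a binding site.

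At the isoform level 580 of 29409 isoforms (1.97%) were called, 309 (1.05%) higher and 271 (0.921%) lower, in 488 genes. The gene itself was called in the same direction in 145 of these genes, was not called in 340, was called in the opposite direction in none and was not among the genes tested in 3. In 8 genes (Eif3c, Eif5, Gldc, Gm47283, Hprt, Lrpap1, Map2k2 and Rpl41) isoforms were called both ways. Full splice matches, which hold every junction of an annotated transcript, were called at 2.79%, incomplete splice matches at 1.34%, combinations of known junctions or splice sites (NIC) at 2.11% and isoforms with a splice site outside the annotation (NNC) at 1.42%. Without embryo 2 of both stages 474 isoforms were called and without embryo 3 of both stages 803, of which 228 and 474 were among the 580. Without 16-cell embryo 4, 1015 isoforms were called.

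Called isoforms that reached 5 copies in either stage and had no overlap between the stages numbered 58, of which 21 were higher and 37 lower. Over all 29409 isoforms tested, called or not, 361 (1.23%) had no overlap. The largest rise was in a full splice match of Ptges, PB.41067.27 (mm10 chr2:30892239-30903317, minus strand, 3 exons). It measured 0, 0, 0 and 0.877 copies and then 7.88, 14.1, 1.32 and 2.28 copies, with no overlap and a log2 difference of 2.68. For Gsto1 the isoform that rose was PB.39649.1, a NIC isoform with 6 exons (chr19:47854658-47864840, plus strand), which held 67.2% of the gene's isoform copies at 8-cell and 80.6% at 16-cell. It rose from 6.86 to 40.5 copies in the mean of 4 embryos, at 2.52. Bmyc, a MYC family gene, rose through its full splice match PB.40716.1 with 1 exon (chr2:25706725-25707742, plus strand), which measured 4.12, 0, 0 and 0.841 copies and then 9.07, 14.6, 5.88 and 7.75 copies. Its embryos did not overlap and the difference was 2.32 (adjusted p = 4.23e-04). The leading full splice matches of Akr1b8 (PB.61502.2), Epcam (PB.34879.12) and Actg1 (PB.15069.4) rose with their genes, at 2.36, 2.05 and 1.91. The Akr1b8 isoform was at 1.61 (unadjusted p = 0.019) without embryo 2 of both stages.

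The largest fall was in PB.68724.28, a full splice match of Tmem41b, an endoplasmic reticulum scramblase gene (chr7:109973396-109986458, minus strand, 7 exons). It measured 21.2, 30.0, 12.4 and 18.6 copies at 8-cell and 2.34, 1.09, 2.62 and 10.3 copies at 16-cell. The stages did not overlap and the log2 difference was -2.66 (adjusted p = 1.25e-04). An isoform of Eif4e, PB.49660.1 (chr3:138526046-138556467, plus strand, 8 exons), fell from 23.1 to 5.79 copies in the mean of 4 embryos, at -2.53. The other 4 were full splice matches of Obox6 (PB.65443.1, -2.45), Lst1 (PB.33131.9, -2.12), Spic (PB.8204.1, -1.96) and Hsd17b14 (PB.67060.2, -1.91).

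In 3 of these genes the isoform that fell had a 3′ end downstream of that of another full splice match with the same number of exons, and the pairs were chosen after their values were seen. In Tmem41b the end lay 895 bases further than that of PB.68724.127, and the longer isoform took 10.3, 19.3, 6.35 and 9.95% of the pair in the 8-cell embryos and 1.76, 1.73, 1.37 and 6.96% in the 16-cell embryos. 8-cell embryo 3 and 16-cell embryo 4 overlapped. In UMIs the longer isoform had 142 and 22 and the shorter 1072 and 1003 at 8-cell and 16-cell. In Eif4e the end lay 295 bases further than in PB.49660.2, and the longer isoform took 54.9 ± 8.85% (SD, n = 4) and 33.7 ± 10.4% (SD, n = 4) of the pair, from 164 and 27 UMIs of the longer form and 140 and 62 of the shorter. In Spic the distance was 493 bases and the shares were 11.7 ± 5.27% and 5.74 ± 4.50% (SD, n = 4 each), from 47 and 7 UMIs of the longer form. The mean isoform length of an embryo, weighted by copies, was 1224 to 1361 bases at 8-cell and 1071 to 1418 bases at 16-cell, so that the ranges overlapped.

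**Figure D5:**
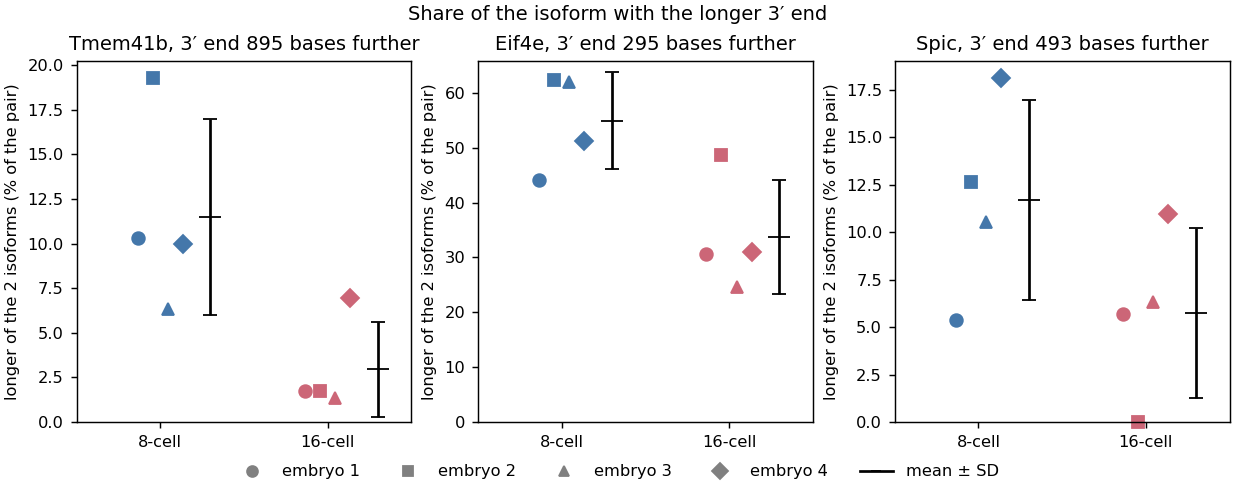
Share of the isoform with the longer 3′ end in a pair of isoforms of Tmem41b, Eif4e and Spic, in percent of the copies of the pair, by embryo (symbols), with the mean ± SD of 4 embryos in black. The shares are lower at 16-cell in the mean, going from 11.5 to 2.95% in Tmem41b, and embryos of the stages overlap in each gene.

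Changes in the shares of isoforms within a gene were not established at this depth. The test planned over all 7 stages called 79 of 3825 genes (2.07%), but on simulated shares with no change it made calls too, so these calls are given without a direction. A fit of the 8 embryos alone, which made no calls on such simulated shares, called none with limma, with 922 genes holding an isoform at an unadjusted p under 0.05. Of the 87 isoforms behind the 79 genes, 53 were at 0 in all cells of 1 stage, their median was 5 UMIs over both stages and 13 had 10 or more. The 6 genes with the smallest adjusted p (Fxr1, Txndc17, Naa50, Rnf138, Bloc1s2 and Rnf8, all at 1.44e-05) each rested on an isoform with 4 to 7 UMIs in 1 stage and 0 in the other. Rnf34, chosen after its values were seen, had more. Its NNC isoform PB.59194.5 had 22 UMIs at 8-cell and 4 at 16-cell, and its full splice match PB.59194.19 had 2 and 15. 16-cell embryo 4 went the other way, with the NNC isoform at 87.4% of the gene and the full splice match at 0.

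The spread between cells of an embryo was compared after thinning each cell to 6000 UMIs. The mean Pearson r between cells of the same embryo was 0.450, 0.454, 0.464 and 0.464 in the 8-cell embryos and 0.441, 0.460, 0.445 and 0.449 in the 16-cell embryos. The ranges overlapped and the means were 0.458 ± 0.0072 and 0.449 ± 0.0084 (SD, n = 4 each), with a p of 0.143 in the two-sided exact permutation test, 0.5 when adjusted over 14 measures. Between cells of different embryos of a stage r was 0.431 ± 0.0048 at 8-cell and 0.399 ± 0.0097 at 16-cell (SD, n = 4 each), and no embryos overlapped. The exact p was 0.0286, the smallest that 4 against 4 can give, and 0.4 after adjustment, and the lowest embryo was 16-cell embryo 2, at 0.386. Each value is a mean over pairs with the other embryos of its stage, so the 4 values of a stage share pairs. They are not independent, and this p cannot be read as a test of the stages. The 16-cell pairs with embryo 2 were at 0.397, 0.370 and 0.382 and the others at 0.416, 0.417 and 0.441, with the 8-cell pairs at 0.4205 to 0.4519. Cells detected 2116 ± 94.4 genes at 8-cell and 2186 ± 77.7 genes at 16-cell and 1926 ± 56.9 and 1959 ± 80.3 isoforms (SD, n = 4 each, isoforms at 4000 UMIs), with exact p-values of 0.314 and 0.543. Full splice matches took 81.2 and 82.0% of isoform UMIs, incomplete matches 12.1 and 11.9%, NIC isoforms 3.15 and 3.19% and NNC isoforms 3.57 and 2.86%, the last with the smallest exact p of the 4 (0.0857, adjusted 0.4).

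The variance of a gene between the cells of an embryo was measured as the Fano factor, the variance over the mean of thinned UMIs, which is 1 for counting noise alone. Its median over genes was 1.05 to 1.13 in the 8-cell embryos and 1.13 to 1.18 in the 16-cell embryos. None of 865 genes passed an adjusted p of 0.05 with limma, while 46 (5.32%) were higher and 12 (1.39%) lower at 16-cell at an unadjusted p under 0.05. Bhmt, a methyltransferase gene of the methionine cycle, had the smallest p. Its Fano factor was 1.02, 0.656, 1.65 and 1.12 in the 8-cell embryos and 4.44, 3.14, 3.48 and 2.07 in the 16-cell embryos (unadjusted p = 0.00304, adjusted p = 0.675). The embryos did not overlap. The largest median Fano factors were in mt-Cytb, mt-Atp6, Rpl41, mt-Nd1, mt-Nd4 and mt-Co1 at 8-cell, from 2.56 to 6.14, and in mt-Co1, mt-Nd1, mt-Atp6, mt-Cytb, Gm47283 and Alppl2 at 16-cell, from 3.92 to 6.72. Among the genes described above, the median for Actg1 was 1.23 at 8-cell and 3.58 at 16-cell, while its mean went from 2.66 to 10.3 thinned UMIs and a Fano factor can grow with the mean, and for Spic 2.51 and 2.52.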

How the data were processed

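The authors made circular consensus reads (SMRT-Link), found the barcode and UMI of each read (scISA-Tools), aligned to mm10 (minimap2), named genes (gffcompare), and collapsed and classified isoforms (cDNA_Cupcake, SQANTI3), keeping those present in at least 5 cells. The deposited values are CPM-like, copies per 100,000 UMIs of a cell, and whole UMIs were recovered from 100% of them within 0.1. Columns of the other stages in the fit were recorded as a score, and per the authors' methods these deposited values are the same scaled copies. The tables held 20171 genes and 68012 isoforms. The names of 40 columns gave no embryo, and these were not used.

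Embryo means were tested on log2(copies + 1) with limma 3.58.1 (trend, array weights, R 4.3.3) in 1 fit of 7 stages and 43 units, on features at 1 copy or more in at least 4 embryos. A call needed a log2 difference over 1 in size and p under 0.01, and adjusted p-values are Benjamini-Hochberg over all features. Sister cells were thinned to 6000 UMIs (4000 for isoforms), except in the correlations with Lrp2, and other measures were tested by exact permutation of 4 against 4 embryos. Blastomeres were collected singly and no doublet caller was run. edgeR 4.0.16 and DESeq2 1.42.0 were alternatives. The limma tests of genes, isoforms, isoform shares and dispersion were run on simulated data, and the other measures were not. The genes named were the 12 largest rises and falls at 10 or more copies among calls with no overlap (for isoforms, 6 each at 5 or more copies), and the called members of fixed lists. Members and lists were chosen with earlier results of these data known.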

Additional observations from a re-analysis of the deposited data

Results flagged for a closer look

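Among 201 groups of 4 embryos, 19 held an embryo whose gap to the nearest of the others took a share of the group's range above Dixon's 95% critical value for 4, where chance flags about 1 in 20 groups, or 10.1 here. No explanation was tested.

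In the 8-cell embryos the highest value stood apart for Gsto1 (18.1 copies in embryo 2), Ptdss2 (89.2 in embryo 4), Sp110 (21.4 in embryo 4), Cdx2 (0.371 in embryo 1), Tfcp2l1 (8.78 in embryo 1), Dab2 (14.3 in embryo 1), Amot (1.86 in embryo 4), Lrp2 (1.04 in embryo 1) and Cnn2 (1.19 in embryo 2). For Cdx2, Amot, Lrp2 and Cnn2 the other 3 embryos were at 0, so the gap is a matter of a few UMIs. Among isoforms the same held for PB.39649.1 of Gsto1 (15.8 in embryo 2) and PB.41067.27 of Ptges (0.877 in embryo 4).

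In the 16-cell embryos the highest value stood apart for Socs3 (3.18 copies in embryo 4), Spic (31.1 in embryo 4, with the others at 27.3 to 27.6), Dab2 (36.2 in embryo 1), Fxyd4 (1.82 in embryo 2) and Scd2 (17.9 in embryo 2), and the lowest for Plk1 (1.25 in embryo 2). It also stood apart for the isoforms PB.34879.12 of Epcam (50.2 in embryo 3) and PB.68724.28 of Tmem41b (10.3 in embryo 4).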

How the results depend on the processing

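Of 87 called genes and isoforms named in the text, the calls were the same in 1670 of 2092 pairs of a feature and an alternative, were lost in 422 and changed sign in 0. The 393 called genes became 256 with the 8-cell and 16-cell embryos alone, 47 with a pseudocount of 5, 260 with a filter of 5 copies, 83 with edgeR, 76 with DESeq2 and 168 at an adjusted p under 0.05. Leaving out 1 embryo gave 315 (without 16-cell embryo 1) to 580 (without 16-cell embryo 4). The 580 called isoforms became 249 with those embryos alone, 53 with a pseudocount of 5, 210 with a filter of 5 copies, 384 with means of logs, 18 with edgeR, 24 with DESeq2, 285 at an adjusted p under 0.05 and 519 to 1015 with 1 embryo left out. The 79 genes with a change in isoform shares became 15 with isoforms present in all 4 embryos of each stage, 27 at 10 copies or more, 0 with the embryos alone and 34 to 108 with 1 embryo left out. The causes were not tested.

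Same-numbered embryos of the stages correlated in their deviations at 0.255, 0.327, 0.0646 and 0.215 for numbers 1 to 4, and number 3 did not correlate best with its own, so the numbers were not taken as pairs. With the replicate block 278 genes (228 of them among the 393) and 234 isoforms were called and 0 switches, and 12 of 85 named calls were not made. Among these were Obox1, Obox2, Oog1, Mvd, Scd1, Stat3, Tet2 and Cat. With embryos 3 and 4 in 1 block 287 genes and 224 isoforms were called.

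The similarity of cells within an embryo changed sign in the isoform table (0.00329). The difference between embryos was -0.0751 without thinning (exact p = 0.0571, where 4 against 4 can reach 0.0286) and -0.0342 to -0.0274 with 1 embryo left out, each at an exact p of 0.0571, the smallest that 4 against 3 can give. Leaving an embryo out dropped its own value, while the values of the others kept their pairs with it. Within minus between was 0.0256 with Spearman's rho (exact p = 0.0286), and the NNC share -0.675 as a mean over cells (exact p = 0.0286). Signs also turned for genes and isoforms per cell without thinning (-56.0 and -356), for ISM as a mean over cells (0.106), and with 1 embryo left out. Those ranges were -0.0515 to 0.00126 for isoforms per gene, -1.90 to 0.167 for the percent of genes with several isoforms, -0.537 to 2.78 for FSM, -2.40 to 1.16 for ISM, -0.0681 to 0.0919 for NIC and -1.23 to 2.10 for ribosomal protein, all in percentage points but the first.

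The shallow embryos 3 of both stages and 16-cell embryo 4 limit what is seen of genes near 1 copy, since 1 UMI is worth more copies there.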
